A study of Homo sapiens with 4 samples.

Results

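Urokinase and plasminogen activation genes are described here through PLAU, PLAUR, PLAT and SERPINE2 in a human breast cancer line. They were chosen by symbol, as the probe sets whose annotation names exactly 1 of these genes. This gave 8 of 54675 probe sets and 4 of 19775 named genes, with 3 sets for PLAUR, 2 each for PLAU and SERPINE2 and 1 for PLAT. The clearest pattern was in PLAU. It rose with TGF-beta in both backgrounds, by 2.93-fold in control cells and 3.40-fold in the arrays labelled DLC1. Without TGF-beta it was 2.16-fold lower in the array labelled DLC1 than in the control array. With each array centred on a list of housekeeping genes, that difference fell short of 2-fold. The other 3 genes stayed within 2-fold in every comparison of 2 arrays.

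Plasminogen is an inactive protease precursor that circulates in blood and is cut to plasmin, which degrades fibrin and pericellular matrix proteins and can activate matrix metalloproteinases and latent growth factors. Urokinase, encoded by PLAU, makes this cut at the cell surface while it is held by its receptor, encoded by PLAUR. The tissue-type activator, encoded by PLAT, acts mainly on fibrin. SERPINE2 encodes protease nexin-1, a secreted serpin that traps thrombin, plasmin and both activators. Urokinase and its receptor are known for their part in invasion by carcinoma cells, and PLAU is a known transcriptional target of TGF-beta in several cell types.

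SCP2 is a single-cell-derived subline of MDA-MB-231 cells that colonises bone. The 4 groups were SCP2 cells with a vector (here called control) and SCP2 cells overexpressing DLC1, a GTPase-activating protein, each untreated or treated with TGF-beta. No dose, time or construct is stated in the labels. Each group has 1 array, so no value has a replicate error. No test was run, and every difference compares 2 arrays. Array medians lay between 0.38 and 0.39 in arbitrary intensity units.

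The DLC1 transcript did not settle the labels. Its brightest probe set, 210762_s_at, differed by 0.93 on the log2 scale between the array labelled DLC1 and the control array without TGF-beta and by 0.54 with it. The set 224822_at gave -0.31 and -0.51. The dim set 220512_at gave -0.53 and, with TGF-beta, -1.11, and the remaining sets were under the filter described below. Directions between the backgrounds therefore rest on the labels alone. Of the epithelial markers, KRT18 read 56.8 to 65.1, KRT19 11.2 to 16.6, KRT8 6.25 to 8.06 and EPCAM 5.76 to 7.45. KRT7 read 2.32 to 8.39, KRT14 0.15 to 0.63 and KRT5 0.35 to 0.42, while CDH1 stayed at or below 0.31. Of 5 measured leukocyte markers 3 were kept, CD14 at 1.08 to 1.67, ITGAM at 0.48 to 0.57 and LYZ at 0.17 to 0.45, and the defining PTPRC read 0.15 to 0.29. Of 8 endothelial and stromal markers 5 were kept. COL1A1 read 0.94 to 9.70, PECAM1 0.67 to 0.85, PDGFRB 0.48 to 0.69, KDR 0.46 to 0.96 and ACTA2 0.39 to 0.41. VWF, CDH5 and DCN read 0.32 or below. Among these kept markers KRT7, KRT14 and COL1A1 rose with TGF-beta in both backgrounds, COL1A1 by 3.37 and 2.86 on the log2 scale. Both untreated KRT14 values, 0.21 and 0.15, were under the filter, so the size of its rise is uncertain. LYZ fell by 1.17 and 1.23 and KDR gave -0.69 and -1.03 between the backgrounds, all at intensities below 1. Their part in the results that follow was not tested.

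The regions just before the annotated starts of PLAU and PLAUR are shown because PLAU is the gene that passed 2-fold and PLAUR encodes its receptor. Each is the 250 bases before a RefSeq start on GRCh38.p14, 5′ to 3′ on the gene's strand. Capitals mark matches, on either strand, to the AP-1 motif TGANTCA, the SMAD motif CAGAC and the ETS motif AGGAAG. PLAU has 2 such starts, at chr10:73910360-73910609 and chr10:73910882-73911131 on the plus strand, and PLAUR has 1, at chr19:43670170-43670419 on the minus strand.
PLAU start 1: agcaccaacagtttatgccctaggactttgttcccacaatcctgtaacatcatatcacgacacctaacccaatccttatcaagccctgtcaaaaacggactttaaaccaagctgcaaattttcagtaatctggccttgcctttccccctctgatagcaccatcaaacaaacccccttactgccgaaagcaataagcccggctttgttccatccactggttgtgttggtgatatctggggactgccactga
PLAU start 2: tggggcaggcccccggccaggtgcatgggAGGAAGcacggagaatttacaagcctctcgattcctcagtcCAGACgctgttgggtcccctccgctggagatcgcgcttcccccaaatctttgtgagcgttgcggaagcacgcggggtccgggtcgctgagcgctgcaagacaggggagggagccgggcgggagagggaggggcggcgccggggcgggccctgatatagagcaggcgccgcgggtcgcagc
PLAUR: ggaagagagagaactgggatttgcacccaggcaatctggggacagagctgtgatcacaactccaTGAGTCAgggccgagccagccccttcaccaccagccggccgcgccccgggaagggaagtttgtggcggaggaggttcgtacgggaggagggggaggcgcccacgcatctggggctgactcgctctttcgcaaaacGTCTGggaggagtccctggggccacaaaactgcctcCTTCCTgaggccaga

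The PLAU start 2 window held 1 SMAD match 180 bases and 1 ETS match 221 bases before the start. It also held 3 matches to the GC box GGGCGG, the nearest 40 bases before it. The PLAU start 1 window held none of these motifs and 1 CCAAT box. The PLAUR window held 1 match each for AP-1, at 186 bases, SMAD, at 51 bases, and ETS, at 15 bases before the start. For SERPINE2, 2 windows were searched, and neither held AP-1, SMAD or ETS letters. Its start 2 window held 7 CCAAT matches, 1 GC box and 1 E-box CACGTG, and its start 1 window 2 GC boxes. No matches overlapped. Of 35116 windows of this length, 38% held the SMAD letters, 28.7% the ETS letters, 6.57% the AP-1 letters, 42.6% the GC box, 32% CCAAT and 6.34% CACGTG. Matches to such short motifs are common and describe the letters only.

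**Figure D1:**
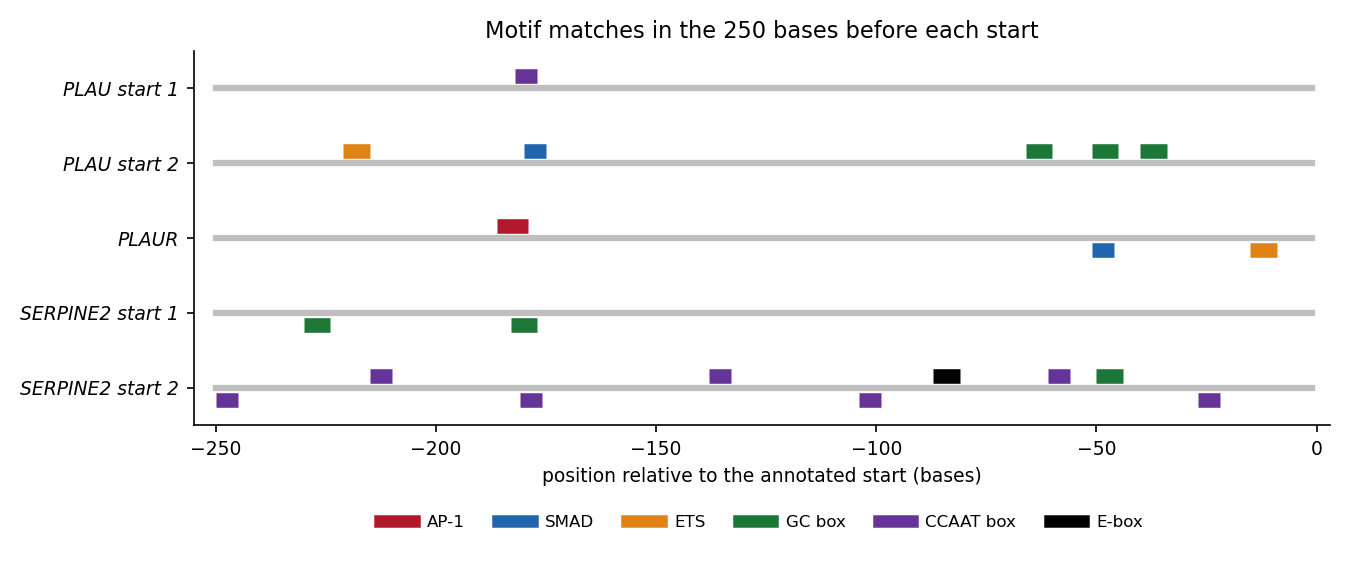
Motif matches in the 250 bases before each annotated start of PLAU, PLAUR and SERPINE2. The horizontal axis is the position relative to the start in bases, and blocks above or below a line are matches on the gene's strand or the opposite one. AP-1 letters were found only in the PLAUR window, and 7 CCAAT matches lie in the SERPINE2 start 2 window.

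PLAU, the urokinase gene, had the widest range of the members. Its brighter probe set, 205479_s_at, read 24.7 in the control array, 72.4 in the control array with TGF-beta, 11.4 in the array labelled DLC1 and 38.8 in the array labelled DLC1 with TGF-beta. Both TGF-beta arrays were higher than both untreated arrays, and within each treatment the array labelled DLC1 was the lower. The second set, 211668_s_at, read 2.51, 10.3, 1.11 and 4.42 in the same order, so both sets order the arrays alike. From the lowest to the highest array the span was 6.34-fold in the first set and 9.25-fold in the second.

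With TGF-beta, PLAU rose by 1.55 on the log2 scale in the control arrays and by 1.77 in the arrays labelled DLC1, where a gene passes at 1, that is 2-fold. The second set gave 2.03 and 1.99, about 4-fold in each background (4.09-fold and 3.98-fold). PLAU was the only member of 4 to pass in either background. A gene was kept if its highest value reached 0.38, the median of all values, and of 13134 kept genes 1.2% rose 2-fold in the control arrays and 0.777% in the arrays labelled DLC1. The differences of PLAU ranked 57 and 25 from the top of these genes. None of the 4 members fell, against 0.685% and 0.107% of kept genes.

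Between the backgrounds, PLAU fell by 1.11 without TGF-beta in the array labelled DLC1, to a level 2.16-fold lower, and its second set gave -1.18. With TGF-beta it gave -0.90, a level 1.87-fold lower and short of 2-fold, while the second set passed at -1.22. Of kept genes, 2.31% fell 2-fold without TGF-beta and 1.61% with it, and 1.61% and 1.45% rose. No member rose in either state. These differences depended on scaling: with each array centred on the housekeeping list, the median of all kept genes moved by 0.17 without and 0.18 with TGF-beta. PLAU then gave -0.95 and -0.72, both short of 2-fold. The split of called genes moved as well, from 41.1% higher without TGF-beta to 64.2%, and from 47.4% to 71% with it.

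PLAU rose with TGF-beta in both backgrounds, and the difference of the 2 differences was 0.21 in the brighter set and -0.04 in the other, and no member reached 2-fold on this measure, as did 0.365% of kept genes in either direction. In the array labelled DLC1 with TGF-beta, PLAU stood 1.57-fold above the untreated control array in one set and 1.76-fold in the other. The TGF-beta treated cells labelled DLC1 thus held more PLAU signal than untreated control cells and less than treated control cells.

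**Figure D2:**
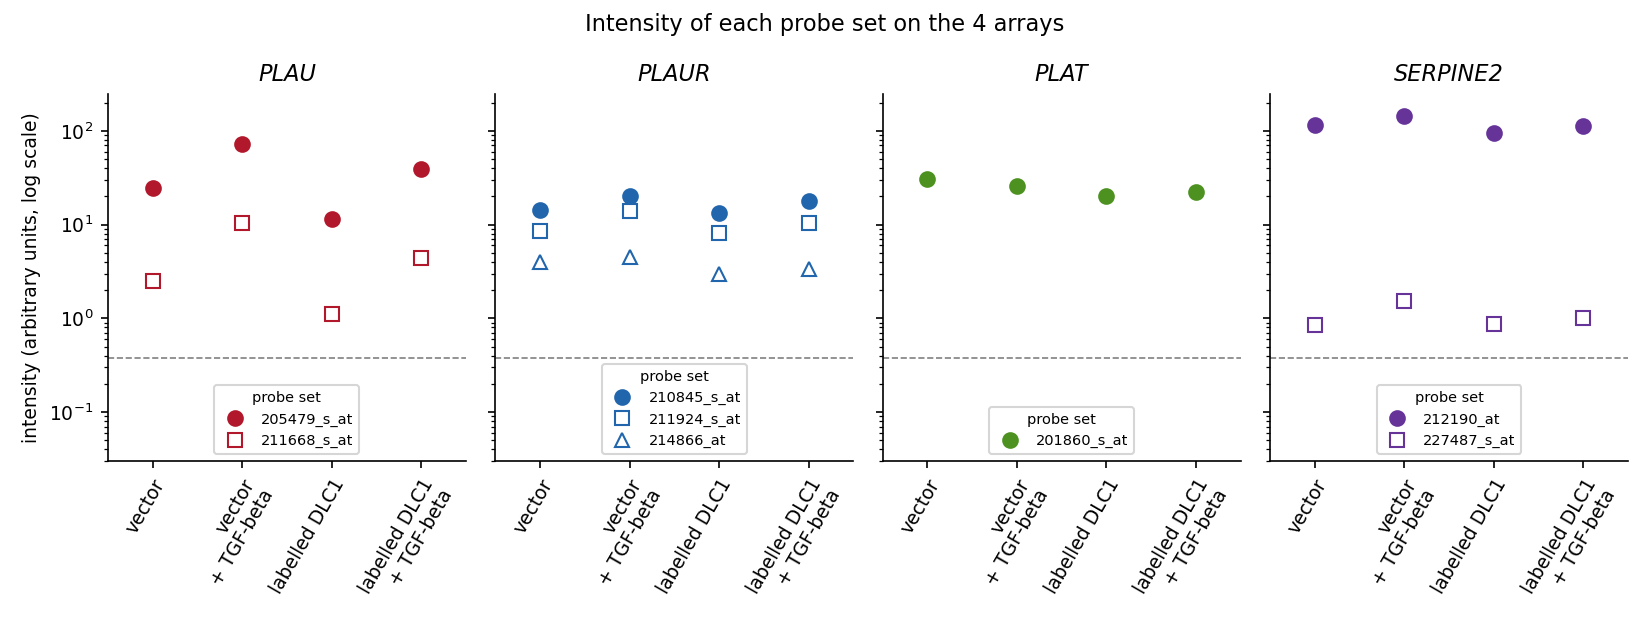
Intensity of every member probe set on the 4 arrays, in arbitrary units on a log axis, with the control arrays marked vector. Filled points are the set used for the gene, open points its other sets, and the dashed line is the filter at 0.38. Heights of different probe sets cannot be compared. PLAU spans 6.34-fold in its filled set, and the filled sets of the other 3 genes span 1.51-fold to 1.53-fold.

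PLAUR, the urokinase receptor, differed in the same direction as PLAU but by less. Its brightest set, 210845_s_at, read 14.5 in the control array, 20.3 with TGF-beta, 13.3 in the array labelled DLC1 and 17.8 there with TGF-beta. Both TGF-beta arrays were again higher than both untreated ones. The difference with TGF-beta was 0.48 in the control arrays and 0.42 in the others, 1.40-fold and 1.33-fold, each above 95.7% and 95.8% of kept genes. The set 211924_s_at gave 0.72 and 0.37, from 8.59, 14.1, 8.06 and 10.5. The set 214866_at gave only 0.18 and 0.15, from 4.03, 4.55, 3 and 3.32, and in it both arrays labelled DLC1 lay below both control arrays. Between the backgrounds the 3 sets ran from -0.43 to -0.09 untreated and from -0.45 to -0.19 treated. Centred on the housekeeping list, the brightest set turned to 0.05 without TGF-beta.

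PLAT, the tissue-type activator, did not follow the rise of PLAU with TGF-beta in the control arrays. Its single set, 201860_s_at, read 30.5 in the control array, 26.1 with TGF-beta, 20.0 in the array labelled DLC1 and 22.2 there with TGF-beta. Both control arrays lay above both arrays labelled DLC1. The difference with TGF-beta was -0.23 in the control arrays and 0.15 in the others, so the 2 backgrounds had opposite signs, neither near 2-fold. Between the backgrounds PLAT differed by -0.61 without TGF-beta, a level 1.53-fold lower, and by -0.23 with it. With no second probe set, these values have no check within the arrays.

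SERPINE2, the serpin that inhibits both activators, differed less with TGF-beta than PLAUR in the set used for each. Its set 212190_at read 115.4 in the control array, 142.3 with TGF-beta, 94.3 in the array labelled DLC1 and 113.3 there with TGF-beta. The treated array was the higher in each background, and the array labelled DLC1 the lower in each treatment. The differences with TGF-beta were 0.30 and 0.27, above 90.8% and 91.2% of kept genes, and those between the backgrounds -0.29 and -0.33. The dim set 227487_s_at read 0.85, 1.55, 0.87 and 1.02, giving 0.87 and 0.23 with TGF-beta and 0.03 and -0.60 between the backgrounds. The 2 sets therefore parted most for TGF-beta in the control arrays, by 0.56.

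**Figure D3:**
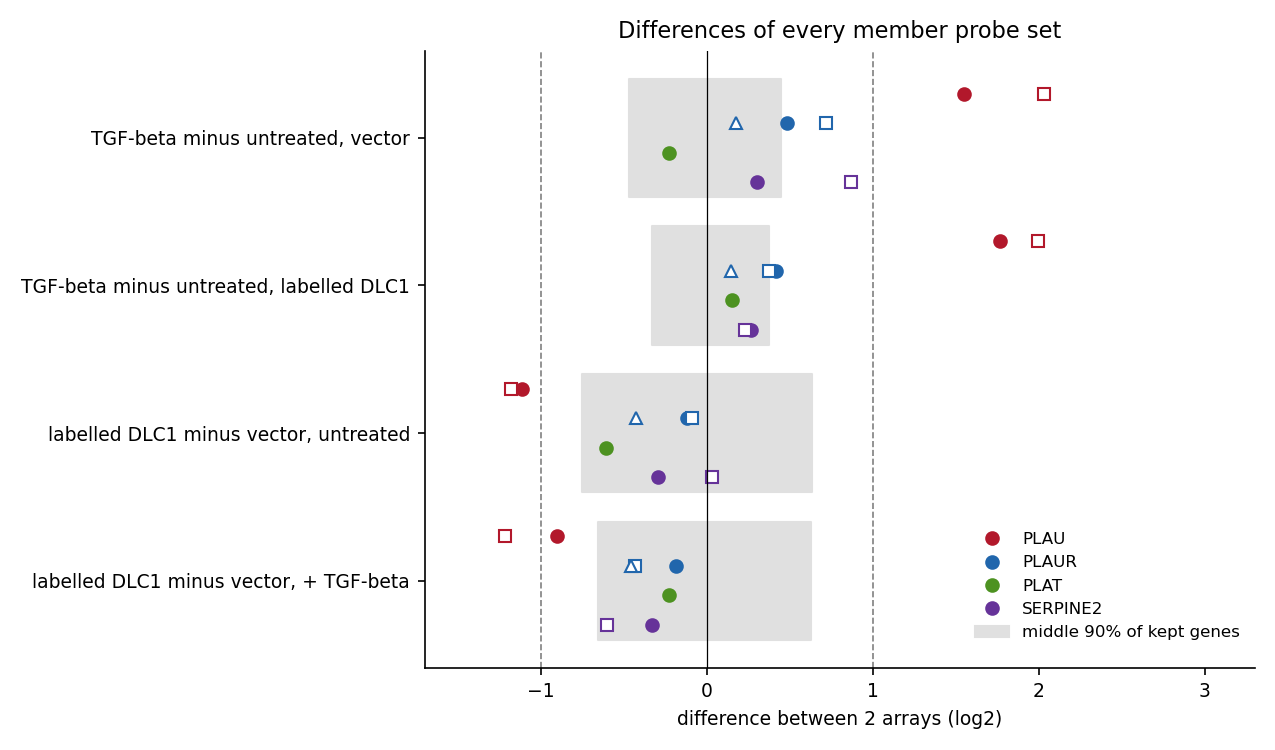
Differences between 2 arrays on the log2 scale for all 8 member probe sets, with the control arrays marked vector. Filled symbols are the set used, open symbols other sets, grey bands the middle 90% of kept genes and dashed lines 2-fold. Both PLAU sets lie beyond 2-fold with TGF-beta in each background, and in the lowest group 1 of the 2 does.

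How far sets of a gene part gives a scale within these arrays, although it holds no culture-to-culture error. Over 6388 genes with 2 kept sets, the median gap between the 2 brightest was 0.13 for TGF-beta in the control arrays and 0.10 in the arrays labelled DLC1. Between the backgrounds it was 0.19 without and 0.16 with TGF-beta. The PLAU sets differed by 0.48 and 0.23 with TGF-beta, and by 0.06 and 0.32 between the backgrounds. These gaps are smaller than the PLAU differences themselves. The PLAU gap of 0.48 is above the 90th percentile over these genes, 0.37, and its other gaps given here are below theirs. The PLAUR and SERPINE2 differences with TGF-beta in the control arrays, 0.48 and 0.30, stand beside gaps of 0.23 and 0.56. Of these, the SERPINE2 gap is also above that percentile.

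Set against each other within the same arrays, where array scaling cancels, the members changed unequally. These contrasts take only the set used for each gene. With TGF-beta PLAU gained 1.07 on PLAUR and 1.78 on PLAT in the control arrays, and 1.35 and 1.61 in the arrays labelled DLC1. Relative to SERPINE2 it gained 2.38-fold and 2.83-fold. Between the backgrounds PLAU lost on each of them: by -0.996 on PLAUR, -0.50 on PLAT and -0.82 on SERPINE2 untreated, and by -0.71, -0.67 and -0.57 treated. The sizes depend on the set. With TGF-beta in the control arrays, the sets not used gave 0.87 for SERPINE2 and 0.72 and 0.18 for PLAUR. In bulk RNA, fewer expressing cells and less RNA per cell cannot be told apart.

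Across the rest of the pathway, 71 further genes in 5 lists were taken, of which 64 were measured and 52 kept. With TGF-beta 3 of the 52 rose in the control arrays (5.77%, beside 1.2% of all kept genes) and 1 in the arrays labelled DLC1 (1.92%, beside 0.777%), and none fell. In the untreated array labelled DLC1, 2 rose (3.85%, beside 1.61%) and 3 fell (5.77%, beside 2.31%). In the treated one, 1 rose (1.92%, beside 1.45%) and 4 fell (7.69%, beside 1.61%), which housekeeping centring turned into 3 and 2. The medians of the 52 were 0.13 and 0.05 with TGF-beta, and -0.04 and -0.13 between the backgrounds. Over all kept genes they were -0.03, -0.01, -0.03 and -0.02.

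Among the precursor and other activating proteases, none of 5 kept genes passed 2-fold. Of all kept genes 0.107% to 2.31% passed in a given direction, so this count is near the background. PLG, which encodes plasminogen itself, read 0.27 to 0.33 on the 4 arrays and was under the filter, so the substrate gene of the system had no array above it. The biggest difference was in KLKB1, the plasma prekallikrein gene, at 0.72 without TGF-beta between the backgrounds, from 0.28 to 0.46.

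Of 6 kept inhibitor genes, none passed 2-fold with TGF-beta, beside 0.107% to 1.2% of all kept genes in a given direction. TFPI2, which encodes a Kunitz-type inhibitor of plasmin and other serine proteases, read 38.8 and 56.7 in the control arrays without and with TGF-beta, and 17.0 and 19.1 in the arrays labelled DLC1. Both control arrays were the higher. It fell by 1.19 without TGF-beta and by 1.57 with it, and its set 209277_at gave -1.80 and -1.87. A2M, the gene of the broad protease inhibitor alpha-2-macroglobulin, rose by 1.77 without TGF-beta, from 0.25 to 0.85. The first of these values is under the filter, so the size is uncertain, and the mean of its sets gave 0.88. With TGF-beta A2M gave 0.87, or 1.05 with housekeeping centring.

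None of 7 kept genes of plasminogen-binding surface proteins passed 2-fold, where 0.107% to 2.31% of all kept genes passed in a given direction, so this count is near the background. The list includes ANXA2 and S100A10, which encode the 2 subunits of the annexin A2 complex. ANXA2 read 199.1 to 223.8 and S100A10 94.1 to 113.3. ENO1, which encodes a glycolytic enzyme also found at the surface, had the biggest difference of this list, 0.39 between the backgrounds without TGF-beta, from 68.5 to 89.7.

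Partners and clearance receptors of the urokinase receptor held 16 kept genes. The integrin genes ITGA5 and ITGAV, whose products associate with the receptor or bind vitronectin, rose with TGF-beta in the control arrays by 1.27 and 1.06. In the arrays labelled DLC1 they gave 0.55 and 0.74. ITGAV read 19.5, 40.5, 17.3 and 29.0 on the control arrays and then the arrays labelled DLC1, untreated first, so both treated arrays were the higher, as for PLAU. ITGA5 read 1.05, 2.54, 0.78 and 1.14, and fell by 1.16 in the array labelled DLC1 with TGF-beta (-0.98 with housekeeping centring). VLDLR, which encodes an endocytic receptor able to clear urokinase complexes, rose in the arrays labelled DLC1 by 1.64 untreated and 1.89 treated. SRPX2, which encodes a secreted ligand of the urokinase receptor, gave -0.83 without TGF-beta and fell by 1.12 with it (-0.94 with housekeeping centring, -0.56 as the mean of its sets).

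Of 18 kept plasmin targets, FN1, the fibronectin gene, rose by 1.38 with TGF-beta in the control arrays and gave 0.89 in the others. THBS1, which encodes thrombospondin-1, rose by 1.21 in the arrays labelled DLC1. Its set used gave 0.31 in the control arrays, but its other 6 sets gave 1.07 to 1.75 there. Between the backgrounds MMP3, the stromelysin gene, read 19.0 and 13.1 in the control arrays and 2.81 and 2.72 in the arrays labelled DLC1, so it fell by 2.76 untreated and by 2.27 treated. THBS1 fell by 1.68 between the untreated arrays and gave -0.78 between the treated ones, where 4 of its other 6 sets gave -1.53 to -1.24 and the mean of its sets -1.15. MMP1, the interstitial collagenase gene, gave -0.59 and -0.49, from 243.5 and 234.5 to 162 and 166.9.

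**Figure D4:**
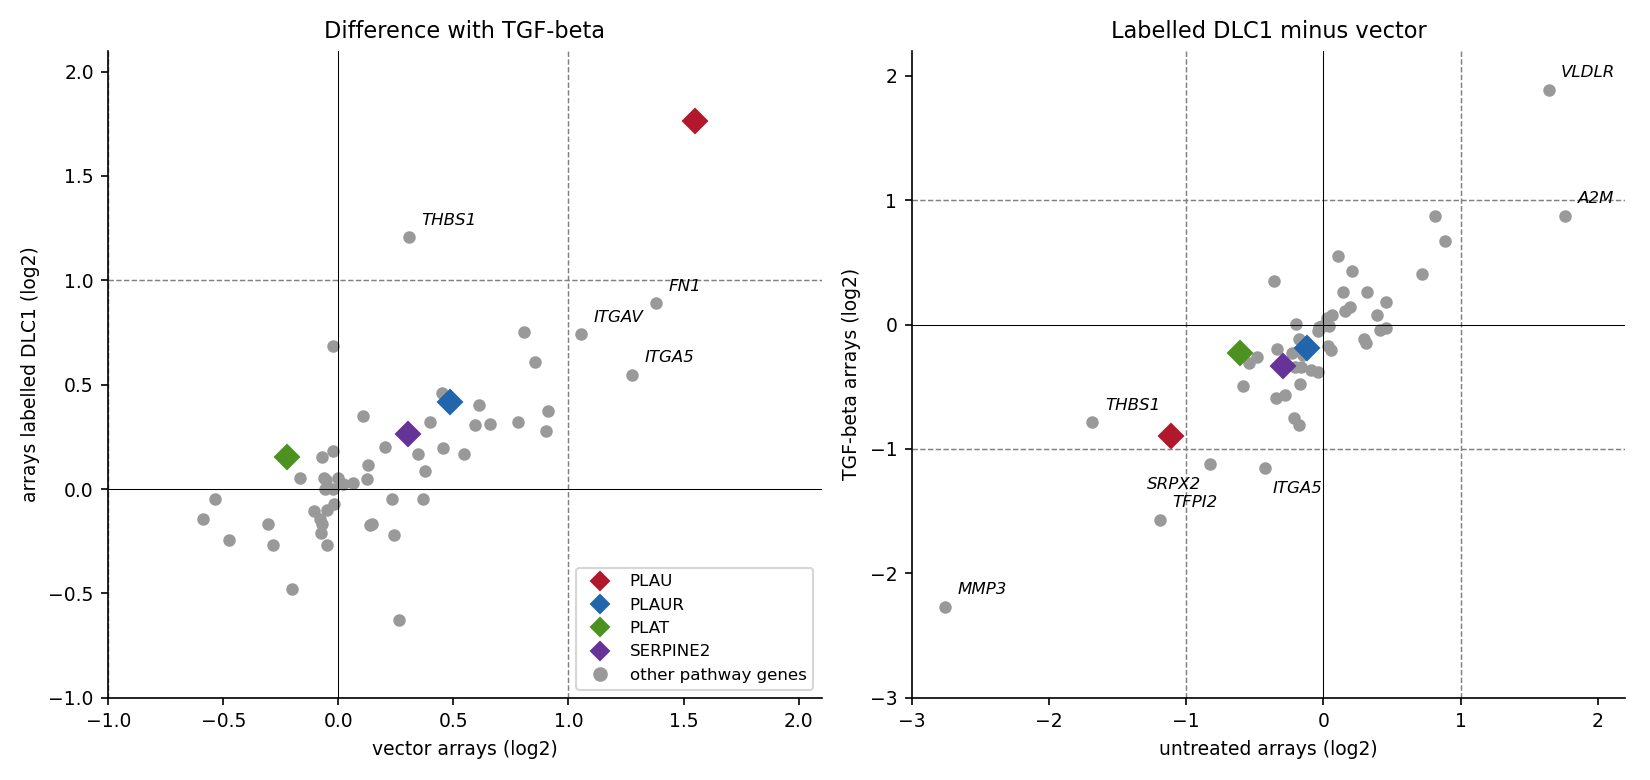
Each kept pathway gene by its 2 differences with TGF-beta (left) and by its 2 differences between the backgrounds (right), on the log2 scale, the 2 axes of a panel sharing no array and vector marking the control arrays. Dashed lines mark 2-fold, and genes past it in at least 1 of the panel's differences are labelled. By the set used for each gene, PLAU at 1.55 and 1.77 is past 2-fold on both axes on the left, and MMP3, TFPI2 and VLDLR on the right; by the mean of its sets THBS1 also is, at 1.22 and 1.20 on the left and -1.12 and -1.15 on the right.

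Relatives of the members were also examined. Of all kept genes 0.107% to 2.31% passed in a given direction, so lists this short with no gene passing are near the background. Of 12 kept genes of the LY6 and urokinase receptor family other than PLAUR, LY6K fell by 1.46 with TGF-beta in the control arrays and by 1.20 in the untreated array labelled DLC1. As the mean of its sets, of which 1 is under the filter, it gave -0.73 and -0.52, both short of 2-fold. LYPD1 fell by 1.58 and 1.21 between the backgrounds, its lowest value of 0.29 being under the filter, and no other passed. Of 4 kept clade E and B serpin genes, SERPINB7 fell by 1.15 without TGF-beta in the array labelled DLC1 (-0.99 with housekeeping centring), from 0.89 to 0.40, and none passed with TGF-beta. Of 18 kept AP-1, ETS, SMAD and related factor genes, JUNB, which encodes an AP-1 subunit, rose by 1.22 with TGF-beta in the control arrays and gave 0.69 in the others. Of 10 kept coagulation genes, only TFPI2, counted above, passed. F3, the tissue factor gene, gave -0.71 and -0.79 between the backgrounds.

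By the distance between profiles, the root mean square gap of log2 values centred on each gene's own mean over the 4 arrays, the genes nearest to PLAU were HSF2BP at 0.07, UCN2 at 0.12 and MIR181A2HG at 0.14. HSF2BP read 1.54, 4.21, 0.72 and 2.17 on the control arrays and then the arrays labelled DLC1, untreated first. It was the only gene within 0.1 of PLAU, where PLAUR had 169, PLAT 585 and SERPINE2 405. The 3 nearest to PLAUR were FAM117B, DSG2 and CDC42SE1, at 0.01 to 0.02. Those nearest to PLAT were NEO1, RPAP2 and CCDC9B, and those nearest to SERPINE2 were SEC22A, MAP3K4 and SPATS2L, all within 0.02. Profiles with small differences have many near matches, and 4 arrays give them little to separate on. Among the members, PLAUR and SERPINE2 were nearest to each other at 0.12, and PLAU lay 0.74 to 0.90 from the other 3.

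The genes beside PLAU on the chromosome stayed within 2-fold. By the RefSeq gene order, the measured genes on either side are CAMK2G, which read 5.67 to 6.28 on the 4 arrays, and C10orf55, which read 0.16 to 0.23 and was under the filter. CAMK2G differed by 0.07 and 0.05 with TGF-beta and by -0.08 and -0.10 between the backgrounds, in the order used above. C10orf55 gave 0.28, 0.17, -0.25 and -0.35. The CAMK2G differences are smaller than the median gaps between sets of a gene given above, and C10orf55 is under the filter. No shared direction with PLAU can therefore be read from either. These neighbours were chosen for display after the values of PLAU were known.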

How the data were processed

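Messenger RNA of 4 SCP2 cultures was measured on 1 array each. The authors deposited 1 intensity per probe set and array, from 0.05 to 265.6, on a linear scale with 2 decimals and an unstated divisor. Per the submitters' processing notes RMA was used, with no version given. It brings arrays close to 1 distribution, which hides any shift common to most genes. Log2 was taken here with no offset. Gene symbols came from GEO's platform annotation of the probe sets: 41097 have 1 symbol, 1801 several and 11777 none. A gene was its set with the highest mean log2 value, kept if its highest intensity reached 0.38.

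Samples were grouped by source name. Differences of log2 values were described with no test, and 2-fold was the rule. The members and lists were chosen with earlier results of these data known. Named were the members, list genes past 2-fold or else a list's biggest difference, and the 3 nearest profiles; EPCAM and the other markers, ANXA2, S100A10, PLG, MMP1, F3 and the neighbours were added after their values were seen. TNFRSF19 and CKB were removed from the plasminogen-binding list, after their values were seen, because they are not known to bind plasminogen. Of the inhibitor list, 3 genes were not analysed here. The difference script was tested on simulated data. Alternatives were other scalings, an offset of 0.1, other probe sets, filters and a 1.5-fold rule. Python 3.11.15, numpy 2.4.6, pandas 2.3.3, R 4.3.3 and limma 3.58.1 (cyclic loess) were used. Promoter windows came from RefSeq on GRCh38.p14; 3 of the 4 genes were used.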

Additional observations from a re-analysis of the deposited data

Results flagged for a closer look

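Some genes differed in opposite directions in the backgrounds or treatments compared, with 1 array on each side, so none of these differences was tested. PLAT differed by -0.23 with TGF-beta in the control arrays and by 0.15 in the arrays labelled DLC1, a difference of 0.38. The dim SERPINE2 set 227487_s_at differed between the backgrounds by 0.03 without TGF-beta and by -0.60 with it, a difference of -0.64, which its brighter set did not show, at -0.04. A2M gave 0.26 and -0.63 with TGF-beta, a difference of -0.89, with 2 of its 4 values under the filter of 0.38, and as the mean of its sets it gave 0 and -0.28. ENO1 gave 0.14 and -0.17 with TGF-beta, a difference of -0.31. KLKB1 gave 0.15 and -0.17, also a difference of -0.31, both control values being under the filter. SERPINB7 gave -0.27 and 0.35 with TGF-beta, a difference of 0.62. Between the backgrounds FN1 gave 0.46 without and -0.03 with TGF-beta, a difference of -0.49. Its opposite signs were lost with housekeeping centring, at 0.62 and 0.15, and in several of its other sets. These were 216442_x_at, at 0.54 and 0.0065, 214701_s_at, at 0.62 and 0.31, and 1558199_at, at -0.09 and -0.70. They also include 214702_at, under the filter, at 0.35 and 0.43. The sets 211719_x_at and 212464_s_at kept the opposite signs. JUNB gave 0.11 and -0.43, a difference of -0.54.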

How the results depend on the processing

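Over 140 alternative values of the 20 member differences, 133 kept direction and side of the 2-fold rule. Some of these values could not differ. PLAT has 1 set, which is also its mean of sets, and median centring changes no difference between arrays of equal median. The rise of PLAU with TGF-beta kept direction and side under every alternative. It ran from 1.55 to 2.03 in the control arrays and from 1.76 to 1.99 in the arrays labelled DLC1. The 7 values that changed direction or side were these. Centred on the housekeeping list, PLAU gave -0.95 and PLAUR 0.047 between the backgrounds without TGF-beta, and no member (0) fell there. With TGF-beta, PLAU gave -1.06 as the mean of its sets, which made 1 member fall, and -1.22 in 211668_s_at. That set gave -0.039 for the difference of the TGF-beta differences. SERPINE2 gave 0.034 in 227487_s_at without TGF-beta and 0.00045 for the difference of differences with arrays centred on their medians.

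With a 1.5-fold rule, 2 members fell without and 1 with TGF-beta between the backgrounds. Of all 13134 kept genes, 1163 and 874 did. PLAU fell in both, and PLAT only without TGF-beta, at -0.61 (-0.44 with housekeeping centring, short of 1.5-fold). Pathway genes then rose and fell by 11 and 1 with TGF-beta in the control arrays (3 and 0 at 2-fold), 6 and 1 in the arrays labelled DLC1 (1 and 0), 5 and 5 between the backgrounds without TGF-beta (2 and 3) and 4 and 8 with it (1 and 4). Without TGF-beta, 1 rose with a filter at the 75th percentile or with set means. Housekeeping centring gave 3 up and 2 down with TGF-beta. Putting TNFRSF19 and CKB back, chosen after seeing the data, moved no count by over 1.5 times. Of 360 values for named list genes, 346 kept direction and side and 0 reversed past 2-fold. Counted among the 346 is A2M with TGF-beta in the control arrays, where the mean of its sets gave 0, which has no direction. Among these 360, too, the mean of sets could not differ for a gene with 1 set. For all kept genes, the 1.5-fold rule moved the counts higher and lower from 157 and 90 to 410 and 381 with TGF-beta in the control arrays, and from 102 and 14 to 302 and 136 in the arrays labelled DLC1. Between the backgrounds they moved from 211 and 303 to 762 and 1163 untreated, and from 190 and 211 to 772 and 874 treated. Housekeeping centring gave 330 and 184 untreated and 330 and 135 treated. The 75th percentile filter gave 58 and 9 lower with TGF-beta and 117 higher between the treated arrays, and set means gave 54 and 8 lower with TGF-beta and 170 lower between the untreated arrays. With 1 array a group, leaving out an array removes the difference it enters, and no paired fit was made.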
